A study of Mus musculus with 12 samples.

Results

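The genes of the mitochondrial ribosome described here were the rows of the deposited count table that were annotated as protein coding and whose symbol began with Mrpl or Mrps followed by a number. The rule found 78 genes among 54532 rows, 49 with an Mrpl and 29 with an Mrps symbol, and used no measured value. The study sequenced poly-A RNA of primary mouse B lymphocytes sorted from 3 wild type mice and 3 Tmem173-/- mice. Tmem173 encodes STING, a receptor for cyclic dinucleotides, and the question was how B lymphocytes respond to the STING agonist 3'3'-cGAMP. There were 12 libraries, 3 for each genotype without agonist (control) and 3 for each genotype kept with cGAMP for 12 hours. The labels do not give the age of the mice, the kind of Tmem173 allele or what the control wells received. The sample descriptions mark the Tmem173-/- libraries with the letters GT, which they do not explain. Because 12 libraries came from 6 mice, libraries of 1 genotype cannot all be from different mice, and p-values measure the spread between these libraries only.

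Mitochondria make the few membrane proteins encoded in their own genome on ribosomes of their own. The RNA of these ribosomes comes from mitochondrial DNA, whereas every protein of them is encoded in the nucleus, made in the cytosol and imported. Some of the proteins descend from those of bacterial ribosomes and others are found only in mitochondria. The small subunit binds and decodes the mRNA, and the large subunit joins amino acids and passes the new chain through a tunnel to the inner membrane. In lymphocytes, mitochondrial translation supplies subunits of the respiratory chain, and its capacity is known to grow when resting cells are activated.

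By the place of their proteins, 51 members belonged to the large subunit, including Mrps30 and Mrps18a in spite of their symbols, and 27 to the small subunit. A bacterial homolog is known for 48 members, and 29 are specific to mitochondria. The remaining one, Mrps36, is known as a part of the oxoglutarate dehydrogenase complex and was counted with the small subunit by its symbol. The 78 genes lay on 17 chromosomes, with 11 of them on chromosome 11 and 8 on chromosome 17. A divergent protein-coding gene, on the other strand with its start at most 1000 bases upstream, was annotated for 18 members (23.1%). The share was 8.85% of all protein-coding genes with a count. Opposite-strand genes whose start lay downstream of the member's start were not counted.

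Total counts per library ranged from 26490593 to 31417833. Counts of Tmem173 itself were 2454 to 2824 in Tmem173-/- control, 2226 to 3041 in Tmem173-/- cGAMP, 2560 to 2903 in wild type control and 1227 to 1430 in wild type cGAMP libraries, so its RNA level did not check the genotype labels, which are used here as given. All 7 B cell markers were counted in every group, with summed levels of 4890 to 6000 CPM (here counts scaled to the library total) in wild type control and 5050 to 6060 in Tmem173-/- libraries. In wild type cGAMP the sum was lower, at 3470 to 4270, and 5 of the 7 markers were called lower and 2 higher. T cell markers reached 6.98 and 16.2 CPM in the replicate 1 libraries of wild type control and wild type cGAMP, and those of neutrophil markers 7.16 and 19. The 3 Tmem173-/- control libraries held at most 1.36 and 0.528. From wild type control to wild type cGAMP, summed monocyte and macrophage markers went from 30.2 to 42.8 down to 6.53 to 14.5 CPM. Summed dendritic cell markers went from 14.8 to 19.3 up to 37.1 to 45.5 CPM. Single markers of both lists split. Of 4 tested monocyte and macrophage markers, 2 had positive and 2 negative log2 changes (-2.80 to 1.88), and 1 was called lower. Of 3 tested dendritic cell markers, 2 were called higher and 1 had a negative log2 change (-0.54). The part of these markers in the members' changes was not tested. In RNA of whole cell samples, fewer cells of a type and less RNA per cell cannot be told apart.

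Of the 78 members, 77 had counts in every library and passed the filter on low counts. Mrpl53 had 0 counts in all 12 libraries. The annotation places 88.0% of its exon bases inside exons of Gm42688 on the same strand, a gene with 21 to 61 counts per library, so the zero does not show the level of its RNA. The members' median level lay above that of all tested genes and below that of cytosolic ribosomal protein genes. Levels per length are the authors' FPKM, fragments scaled to library size and to a length of each gene. For the members, the length implied by count and FPKM was at the median 0.491 times the deposited gene length, and at the lowest 0.146 times. The order of members by FPKM depends on this choice of length. By FPKM, the 77 members had a median level of 42.9 over the wild type controls, with a range from 8.94 to 170 (19-fold). The median level of the 86 tested cytosolic ribosomal protein genes was 2010 FPKM, and that of all tested genes 10.7 FPKM. The upper quartile of all tested genes was 37 FPKM, below the members' median.

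The highest member by FPKM was Mrpl52, a large subunit protein specific to mitochondria, at 170 ± 20.9 FPKM (SD, n = 3). Mrps21, of the small subunit, followed at 134 ± 4.78, and Mrpl2, a core protein of the large subunit, at 122 ± 14.7. The spreads of Mrps21 and Mrpl2 overlapped. Mrps30 was lowest, at 8.94 ± 0.501, with Mrps6 at 10.9 ± 1.35 and Mrpl1 at 11 ± 1.49, and the latter pair did not differ beyond its spread.

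Summed over the members, the level was 3639, 3512 and 4439 CPM (here and from now on scaled by the trimmed mean of M values) in wild type control replicates 1, 2 and 3, and 4069, 4445 and 4148 in wild type cGAMP. It was 3773, 3231 and 2928 in Tmem173-/- control and 3654, 3391 and 3387 in Tmem173-/- cGAMP. Wild type control replicate 3 stood with the cGAMP libraries rather than with the other 2 controls, and the wild type groups overlapped. That library held the highest of the 3 control values for 74 of 77 members. Among the Tmem173-/- controls, replicate 1 was highest for 72 members and replicate 3 lowest for 65. The median coefficient of variation of a member within a group was 14.3% in wild type control and 13.4% in Tmem173-/- control, against 6.56% and 6.19% in the cGAMP groups. Summed small subunit level divided by summed large subunit level stayed between 0.411 and 0.43 in all 12 libraries.

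**Figure D1:**
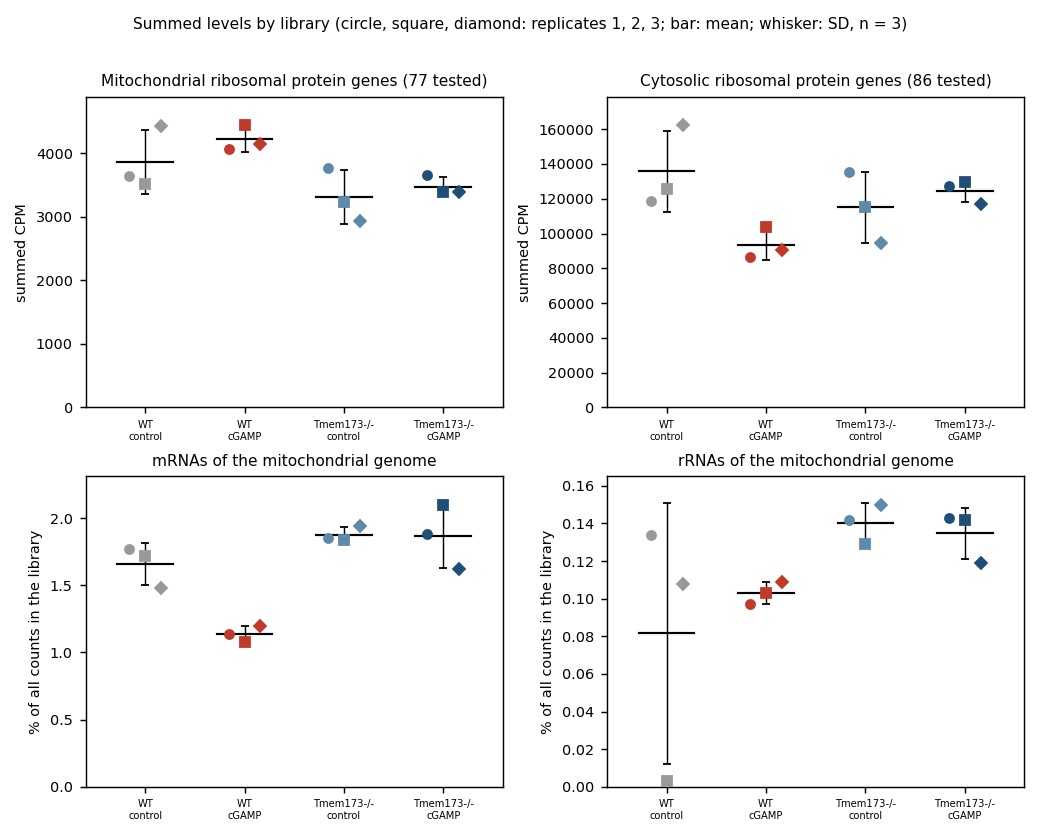
Summed level by library of the mitochondrial ribosomal protein genes (CPM), the cytosolic ribosomal protein genes (CPM), and the mRNAs and rRNAs of the mitochondrial genome (percent of all counts). Points are libraries, bars the mean and whiskers the SD (n = 3): the members of wild type control replicate 3 reach 4439, inside the range of wild type cGAMP, and rRNA of wild type control replicate 2 lies near 0.

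With cGAMP, wild type B lymphocytes raised the RNA of some mitochondrial ribosomal protein genes by modest amounts and lowered that of few. In the edgeR quasi-likelihood test with Benjamini-Hochberg adjustment over 14473 genes at a threshold of 0.05, 18 of 77 members were called higher and 4 lower, and 55 were not called. Over all tested genes, 22.4% were called higher and 25.4% lower, so the members' share of rises (23.4%) was near the background, while their share of falls (5.19%) was below it. The median log2 fold change of the members was 0.15 with a range from -0.52 to 0.89, against -0.00 for all tested genes, and 53 members had a positive value. None of the 22 called members changed by 2-fold or more and 3 did by 1.5-fold or more. The median fold of the called members was 1.29, against 1.59 over all 6921 called genes. In 24.7% of members every wild type cGAMP library lay above every wild type control, against 26% of all tested genes. In 9.09% of members every cGAMP library lay below every control, against 28.4% of all tested genes. Scaled by library totals alone, the count was 33 higher and 2 lower. The number of rises also depended on single control libraries: it was 9 without wild type control replicate 1, 10 without replicate 2 and 32 without replicate 3, with 4, 4 and 1 falls. Without wild type cGAMP replicate 2 it was 11, and without both wild type replicate 1 libraries 9 rises and 2 falls were called.

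**Figure D2:**
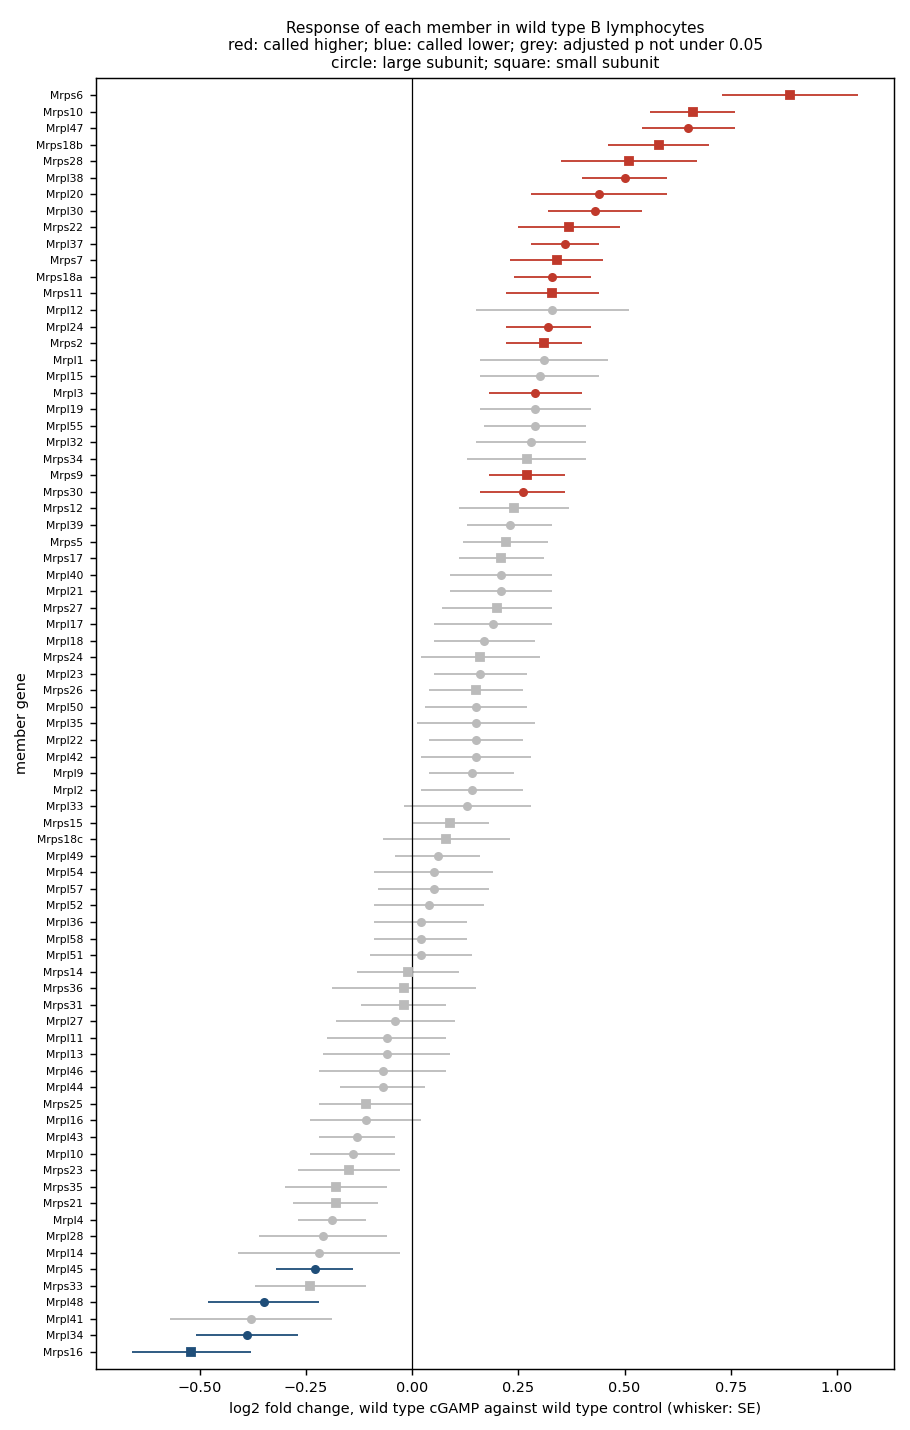
Log2 fold change of each of the 77 tested members in wild type cGAMP against wild type control, with its SE; red and blue mark calls in the edgeR test. The 18 called rises lie between 0.26 and 0.89, and the 4 called falls between -0.52 and -0.23.

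Calls fell in both subunits. Of 50 tested large subunit members, 9 were called higher (18%, under the 22.4% of all tested genes) and 3 lower with a median log2 fold change of 0.14, and of 27 small subunit members 9 were called higher (33.3%) and 1 lower with a median of 0.20. Members with a bacterial homolog gave 14 rises and 2 falls of 48 (median 0.20), and those specific to mitochondria 4 rises and 2 falls of 28 (median 0.05). These classes were not tested against each other. By place in the large subunit, the stalk proteins Mrpl10, Mrpl11 and Mrpl12, which bind translation factors, had no call. Of the 4 proteins around the tunnel exit, Mrpl24 was called higher and Mrpl45 lower, and of the 6 of the central protuberance Mrpl38 was called higher and Mrpl48 lower.

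Among small subunit genes, Mrps6 (chr16:92058270-92112227, plus strand, GRCm38 as in the deposited table), which encodes a homolog of a bacterial small subunit protein, rose most. Its level was 8.58, 9.4 and 11.9 CPM in wild type control and 17.3, 21.9 and 16.3 CPM in wild type cGAMP. All 3 treated libraries lay above all controls, and the change was 1.85-fold (log2 0.89 ± 0.16 SE, adjusted p = 0.00024 by edgeR). The annotation shares 19.9% of Mrps6 exon bases with other genes on the same strand, 10.4% with Slc5a3, a sodium/myo-inositol transporter gene, which also rose in the same comparison (log2 0.72 ± 0.12, adjusted p = 0.000167 by edgeR). How the authors' counting divided reads between them is not given in the sources used here, so the Mrps6 value is uncertain to that extent.

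Mrps10 (chr17:47368887-47381417, plus strand), a protein of the small subunit head, had 34.4, 37.1 and 42.6 CPM in wild type control and 57.9, 62.1 and 60 CPM in wild type cGAMP. The groups were well apart, with a 1.58-fold rise (log2 0.66 ± 0.10, adjusted p = 3.58e-05 by edgeR), the smallest p of all members. None of its exon bases is shared with another gene. Mrps18b (chr17:35910379-35916389, minus strand) had 25.5, 21.9 and 25.2 CPM in control and 35.4, 36.8 and 36.6 CPM with cGAMP. This 1.5-fold rise (log2 0.58 ± 0.12, adjusted p = 0.000875 by edgeR) also left no overlap, although 30.5% of its exon bases lie opposite the antisense transcript Gm16279, whose level was 2.03 CPM in control and 3.52 CPM in cGAMP libraries. Mrps28 followed with 40.8 ± 7.91 CPM in control and 58.2 ± 7.25 CPM with cGAMP (SD, n = 3), and Mrps22, a mitochondria-specific protein, with 33.3 ± 5.22 and 43.1 ± 2.77 CPM. Their log2 changes were 0.51 ± 0.16 and 0.37 ± 0.12 (SE), and both calls were lost without wild type control replicate 1 or 2 and without wild type cGAMP replicate 2. The other small subunit genes called higher were Mrps7, Mrps11, Mrps2 and Mrps9, with log2 changes of 0.34, 0.33, 0.31 and 0.27.

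In the large subunit, Mrpl47 (chr3:32725397-32737605, minus strand) rose most. It has a bacterial homolog. Its level was 23.7, 19.1 and 26.4 CPM in wild type control and 34.7, 35 and 39.1 CPM in wild type cGAMP. The groups did not overlap and differed 1.57-fold (log2 0.65 ± 0.11, adjusted p = 0.000152 by edgeR). On the opposite strand, exons of Ndufb5 cover 13.9% of its exon bases, and Ndufb5 fell in the same comparison (log2 -0.30 ± 0.11, adjusted p = 0.033 by edgeR). Another gene on that strand, Actl6a, covers 10.2% and was not called, at log2 0.24 ± 0.10 (adjusted p = 0.0587 by edgeR).

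Mrpl38 (chr11:116131817-116138868, minus strand), of the central protuberance, had 72.1, 65.8 and 80 CPM in wild type control and 101, 104 and 104 CPM with cGAMP (log2 0.50 ± 0.10, adjusted p = 0.000414 by edgeR). Mrpl37, a large subunit protein specific to mitochondria, had 72.5, 69.7 and 72.5 CPM in control and 94, 89.7 and 91.9 CPM with cGAMP. Both genes were far apart between groups, with the smaller change in Mrpl37 (log2 0.36 ± 0.08, adjusted p = 0.00117 by edgeR). Mrpl20 and Mrpl30, homologs of bacterial large subunit proteins, rose by log2 0.44 ± 0.16 and 0.43 ± 0.11. Further called rises in the large subunit were Mrps18a at log2 0.33, Mrpl24 at 0.32, Mrpl3 at 0.29 and Mrps30 at 0.26. For Mrpl24, 26.3% of the exon bases lie opposite Rrnad1, which rose in the same comparison by log2 1.49 ± 0.21 (adjusted p = 5.67e-05 by edgeR).

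**Figure D3:**
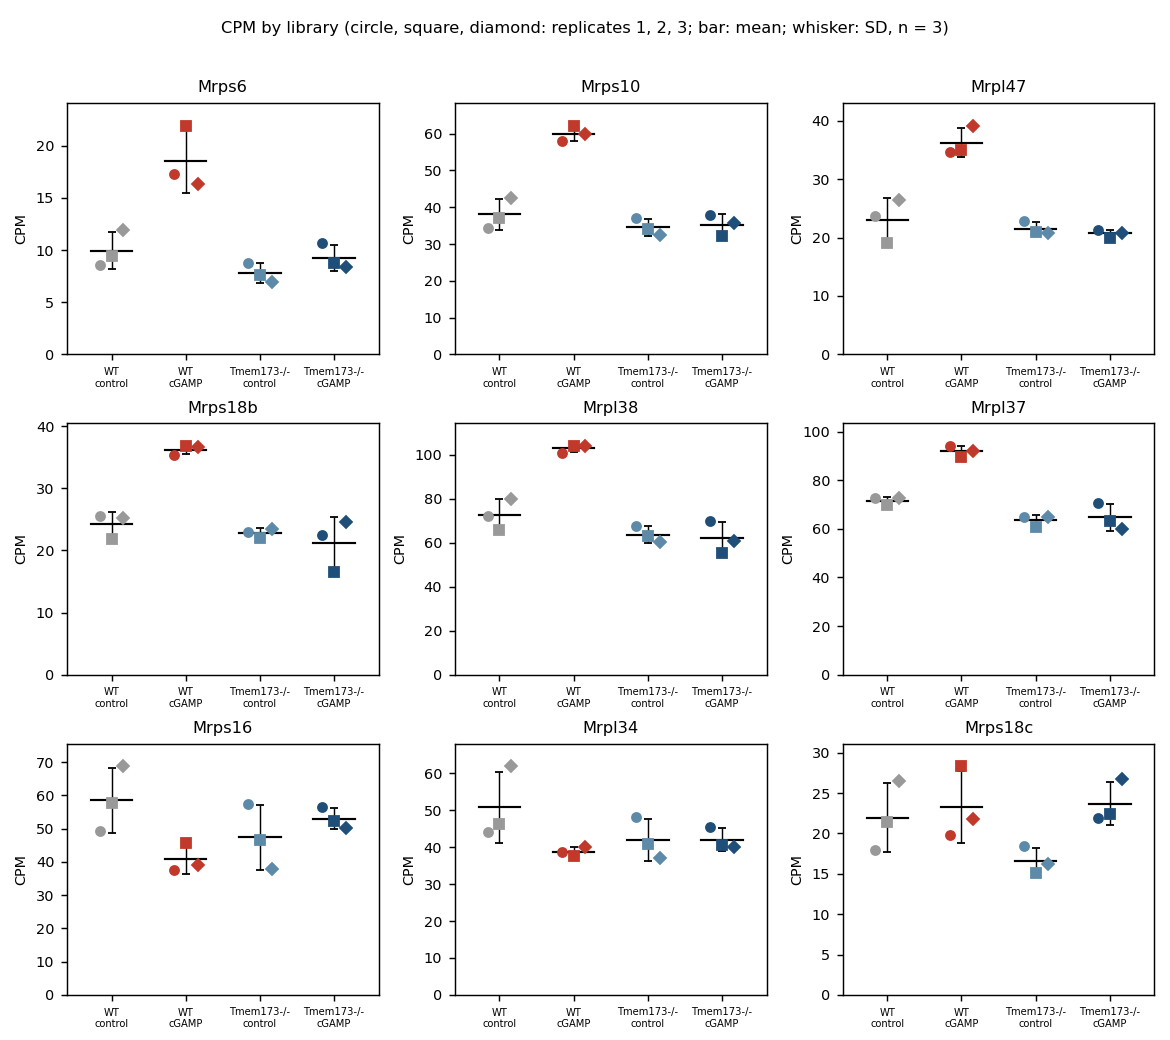
CPM of 9 members in each of the 12 libraries, with mean (bar) and SD (whisker, n = 3) for each group. Mrps6, Mrps10, Mrpl47, Mrps18b, Mrpl38 and Mrpl37 are higher in all 3 wild type cGAMP libraries than in any other library; Mrps16 and Mrpl34 are lower in wild type cGAMP than in wild type control.

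Called falls were fewer, with log2 changes from -0.52 to -0.23. Mrps16 (chr14:20389304-20393634, minus strand), a small subunit protein with a bacterial homolog, had 49.2, 57.7 and 68.7 CPM in wild type control and 37.5, 45.7 and 39.1 CPM in wild type cGAMP. All treated libraries were below all controls, and the level was 1.44-fold lower (log2 -0.52 ± 0.14, adjusted p = 0.00689 by edgeR). Mrpl34 (chr8:71464959-71465747, plus strand), one of the smallest large subunit proteins, had 44.2, 46.3 and 61.9 CPM in control and 38.7, 37.6 and 40.1 CPM with cGAMP (log2 -0.39 ± 0.12, adjusted p = 0.0159 by edgeR). Mrpl48 of the central protuberance and Mrpl45, which holds the ribosome to the inner membrane, fell by 0.35 and 0.23 on the log2 scale. Mrpl34, Mrpl48 and Mrpl45 were no longer called without wild type control replicate 3. The call of Mrpl34 was also lost without wild type cGAMP replicate 2, that of Mrpl48 in 7 and that of Mrpl45 in 13 of 16 alternative fits.

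Calls differed in how far they depended on the choices of the fit. Of the 18 rises, 7 were called in every one of 16 alternative fits of this comparison: Mrps6, Mrps10, Mrpl47, Mrps18b, Mrpl38, Mrpl37 and Mrps18a. Of the 4 falls, Mrps16 alone was. Across the 12 libraries, the highest CPM of a member was at the median 1.63 times its lowest, from 1.25 times for Mrpl4 to 3.16 times for Mrps6.

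**Figure D4:**
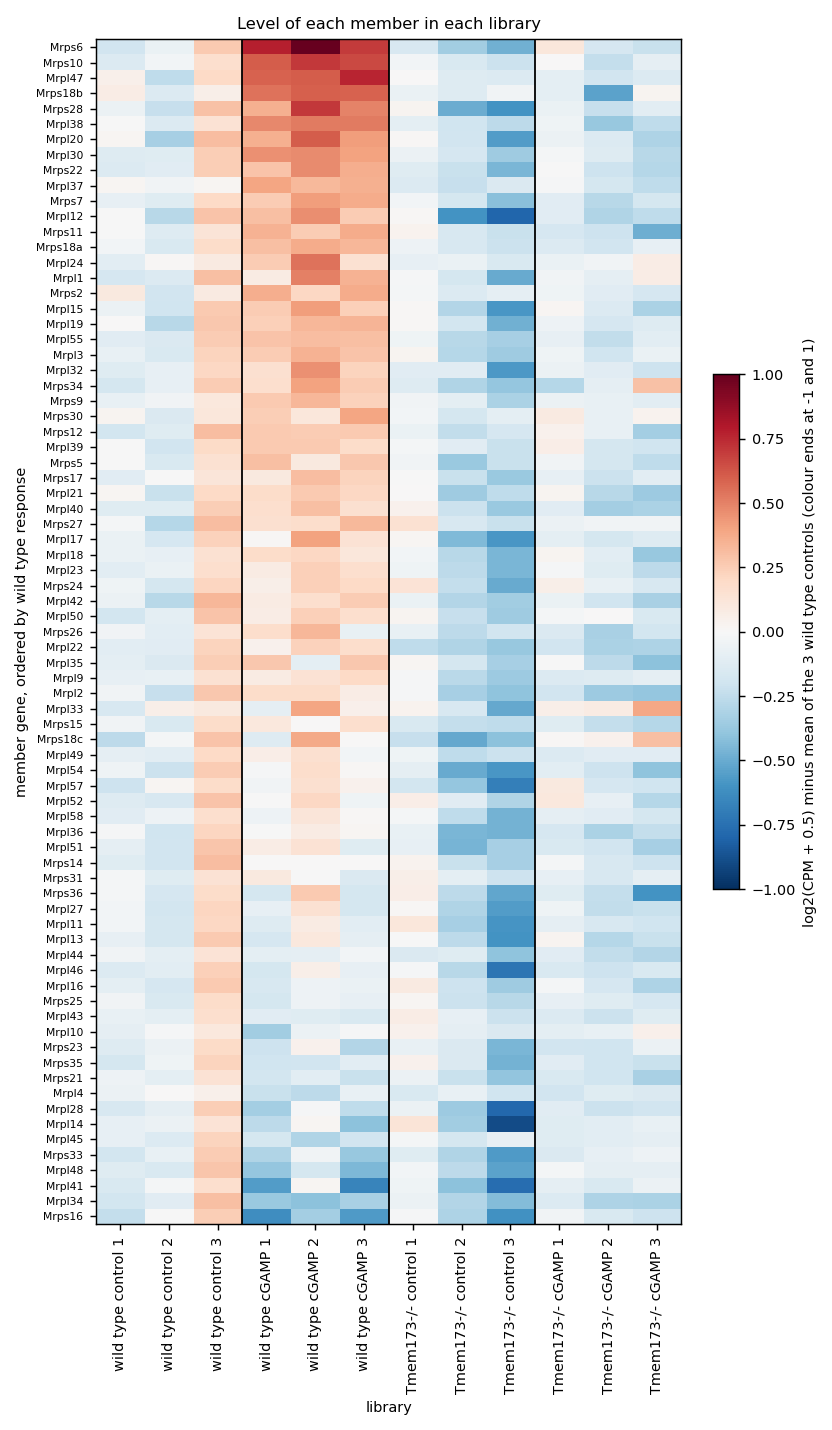
Level of each tested member in each library as log2(CPM + 0.5) minus the mean of the 3 wild type controls, members ordered by their response in wild type cells. The rises at the top appear in all 3 wild type cGAMP libraries, while wild type control replicate 3 is higher and Tmem173-/- control replicate 3 lower than the rest of their groups for most members.

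In Tmem173-/- cells, no member was called with cGAMP. This was also so for all genes, with 0% of 14473 called by edgeR. At an unadjusted p under 0.05 there were 3 of 77 members and 203 of all genes, and DESeq2 and limma-voom called no member either. The median log2 fold change of the members was 0.06, and -0.02 without Tmem173-/- control replicate 3 and 0.15 without control replicate 1. By limma-voom, the 95% intervals of the members' log2 changes had a median half-width of 0.26, a factor of 1.2, without adjustment for the number of genes. For 70 of 77 members the interval lay within a 1.5-fold change in either direction, and for all 77 within 2-fold. Mrps6 had 8.8, 7.63 and 6.93 CPM in Tmem173-/- control and 10.7, 8.72 and 8.39 CPM in Tmem173-/- cGAMP, groups that overlapped, and its interval was -0.14 to 0.62. For Mrps10 the levels were 37.1, 34 and 32.5 CPM without and 37.9, 32.1 and 35.6 CPM with the agonist, and the interval was -0.19 to 0.23.

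The largest change in Tmem173-/- cells was that of Mrps18c, at 18.4, 15.1 and 16.2 CPM in control and 21.9, 22.4 and 26.8 CPM with cGAMP. These groups did not overlap, but the log2 change of 0.52 ± 0.15 had an adjusted p of 1 by edgeR (0.0472 when genes were not filtered for low counts). Only Mrps18c and Mrpl33 had all 3 treated libraries above all controls, 2.6% of the members against 3.2% of all tested genes.

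Whether the response differed between genotypes was tested as the wild type response minus the Tmem173-/- response. In this test 7 of 77 members were called higher and 2 lower, against 14.1% and 17.5% of all tested genes. All 7 that were higher had also been called as rises in wild type cells: Mrpl47 (log2 difference 0.71 ± 0.16 SE, adjusted p = 0.00285 by edgeR), Mrps18b (0.69 ± 0.17), Mrps6 (0.64 ± 0.23), Mrps10 (0.63 ± 0.14, adjusted p = 0.00223 by edgeR), Mrpl38 (0.54 ± 0.13), Mrps11 (0.50 ± 0.16) and Mrpl37 (0.34 ± 0.11). The difference was negative for Mrps16 (-0.68 ± 0.20, adjusted p = 0.0172 by edgeR) and Mrpl48 (-0.54 ± 0.18, adjusted p = 0.0372). The median difference over the members was 0.06 (-0.05 without Tmem173-/- control replicate 1), and for the other 68 members no difference between the responses was called. Without Tmem173-/- cGAMP replicate 3, or without both wild type replicate 1 libraries, 5 members were called.

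**Figure D5:**
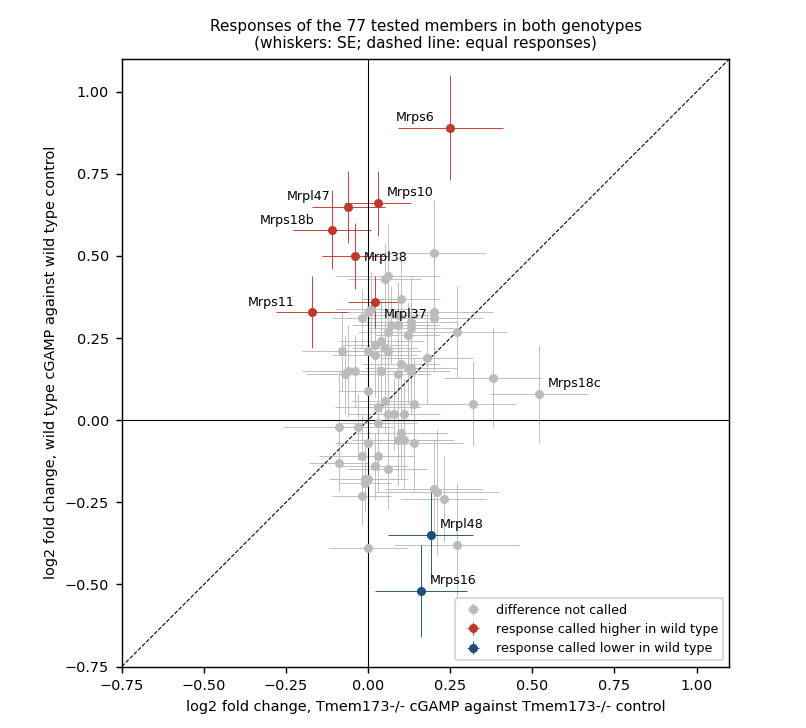
Log2 fold change with cGAMP of the 77 tested members in wild type (vertical axis) and Tmem173-/- cells (horizontal axis), with SE; the dashed line marks equal responses. Red and blue mark the 7 members whose response was called higher and the 2 whose response was called lower in wild type cells.

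Without agonist, every tested member was lower in Tmem173-/- than in wild type cells by its fitted value, yet none was called. The median log2 difference, Tmem173-/- control minus wild type control, was -0.22 with a range from -0.44 to -0.06, against a median of -0.01 for all tested genes, of which 0% were called by edgeR. At an unadjusted p under 0.05 there were 23 of 77 members and 921 of all genes, and DESeq2 and limma-voom called no member. Members share their libraries, and the median was -0.12 without wild type control replicate 3 and -0.14 without Tmem173-/- control replicate 3, the libraries that stood highest and lowest. The cytosolic ribosomal protein genes had a median of -0.24 in this comparison, and their summed CPM was likewise highest in wild type control replicate 3 (162354) and lowest among the Tmem173-/- libraries in control replicate 3 (94585). The part of these libraries in the members' difference was not tested beyond leaving each out.

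The 5 members with the smallest p in that comparison were Mrpl57, Mrpl22, Mrpl36, Mrpl54 and Mrps18c, each with an adjusted p of 0.728 by edgeR. Mrpl57, a mitochondria-specific large subunit protein, had 30.4, 35.7 and 39.9 CPM in wild type control and 30.9, 26.8 and 21.7 CPM in Tmem173-/- control (log2 -0.42 ± 0.13). The groups overlapped. Mrpl22, at the tunnel exit, had 24.2, 24.1 and 30.6 against 21.8, 21.1 and 20 CPM, without overlap (log2 -0.33 ± 0.11). Across all members, 5 (6.49%) had every Tmem173-/- control library below every wild type control library and 0 had the reverse, against 4.08% and 5.01% of all tested genes.

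The genotypes were also compared under cGAMP. In Tmem173-/- cGAMP against wild type cGAMP, 37 of 77 members were called lower and 1 higher. The background was 23.5% of all tested genes called lower and 24.9% higher, so the members' share of lower calls (48.1%) was above it and their share of higher calls (1.3%) below it. The median log2 difference was -0.30. Between the controls it was -0.22, and the median difference between the 2 responses was 0.06. The part of the difference without agonist in these calls was not tested. Called lower were 23 of 50 large subunit members and 14 of 27 small subunit members. By origin, the lower calls were 30 of 48 members with a bacterial homolog and 7 of 28 specific to mitochondria. In 48 of 77 members (62.3%) all Tmem173-/- cGAMP libraries lay below all wild type cGAMP libraries and in 4 (5.19%) above them, against 29.2% and 29.7% of all tested genes.

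Mrps10 (log2 -0.77 ± 0.10, adjusted p = 6.68e-06 by edgeR), Mrpl38 (-0.73 ± 0.10), Mrpl47 (-0.81 ± 0.11), Mrpl37 (-0.51 ± 0.08) and Mrps18b (-0.77 ± 0.12) had the smallest adjusted p. The largest difference was that of Mrps6, at -1.0 ± 0.16, a 1.99-fold lower level in Tmem173-/- cells. Mrps16 was the single member called higher, at 56.5, 52.2 and 50.2 CPM against 37.5, 45.7 and 39.1 CPM (log2 0.38 ± 0.14, adjusted p = 0.0392 by edgeR), and this call was lost without any 1 of the 3 Tmem173-/- cGAMP libraries, without wild type cGAMP replicate 1 or 3, without both wild type replicate 1 libraries and with the replicate block. This comparison shares its wild type cGAMP libraries with the response above, and the control comparison shares the wild type controls with it, so the 3 sets of values are not independent. By mean CPM, wild type cGAMP was the highest of the 4 groups for 51 members, wild type control for 24, and Tmem173-/- control the lowest for 52.

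The 3 paralogs of the bacterial S18 protein were not all called in wild type cells with cGAMP. Mrps18a, whose protein sits in the large subunit, had 36.5, 33.4 and 42.4 CPM in wild type control and 45.9, 48.3 and 47.1 CPM with cGAMP (log2 0.33 ± 0.09, adjusted p = 0.00761 by edgeR). Mrps18b, of the small subunit, rose by log2 0.58 as given above. Mrps18c, also of the small subunit, had 18, 21.4 and 26.5 CPM in control and 19.8, 28.3 and 21.8 CPM with cGAMP, overlapping groups with a log2 change of 0.08 ± 0.15 (adjusted p = 0.675 by edgeR). The differences between the paralogs were not tested. The annotation places 23.2% of Mrps18c exon bases in Gm43511 on the same strand.

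Other nuclear genes that serve mitochondrial translation were examined in lists chosen by function. Of 5 further ribosomal subunit genes, Ptcd3, a small subunit protein with RNA-binding repeats, rose from 73.2, 67.3 and 75.7 to 110, 113 and 116 CPM in wild type cells (log2 0.65 ± 0.08, adjusted p = 4.32e-06 by edgeR). Over all tested genes, 22.4% were called higher and 25.4% lower in this comparison. Of 15 translation factors and related genes, 5 were called higher (33.3%) and 1 lower (6.67%). Slirp, which with Lrpprc protects mitochondrial mRNAs, had a log2 change of 0.81, the elongation factor gene Gfm1 0.58, Tsfm 0.54 and the formyltransferase gene Mtfmt 0.53, while Oxa1l, which inserts new chains into the membrane, had -0.26. Of 24 tested genes for assembly of the ribosome and modification of its rRNA, 10 were called higher (41.7%) and 5 lower (20.8%). The largest rises there were those of the helicase gene Dhx30 (log2 0.67), Mettl17 (0.58), the rRNA methyltransferase gene Mrm3 (0.57) and Fastkd2 (0.55), and the largest falls those of Trmt2b (-0.91), Mettl15 (-0.83), Mrm2 (-0.46) and Ddx28 (-0.34).

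Of 4 mitochondrial transcription genes, the RNA polymerase gene Polrmt was called higher (log2 0.43 ± 0.10, adjusted p = 0.00229 by edgeR). Among 10 regulators of nuclear genes for mitochondria, 3 were called higher (30%) and 0 lower (10 genes tested by edgeR, 3 at an unadjusted p under 0.05). The shares over all tested genes were 22.4% higher and 25.4% lower. Myc went from 192, 154 and 164 to 393, 323 and 360 CPM (log2 1.08 ± 0.11, adjusted p = 5.92e-07 by edgeR), Pprc1, a coactivator, changed by log2 1.03 ± 0.09 and Max, the partner of Myc, by 0.38 ± 0.07. In Tmem173-/- cells no gene of these lists was called, and neither was any other of the 14473 tested genes (0%).

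Cytosolic ribosomes and the mitochondrial genome moved otherwise. Of 86 tested cytosolic ribosomal protein genes, 65 were called lower (75.6%) and 5 higher (5.81%) in wild type cGAMP. The shares over all tested genes were 25.4% and 22.4%. The median log2 fold change of the cytosolic genes was -0.52, while the members' median was 0.15. Of 29 tested transcripts of the mitochondrial genome, 14 were called lower (48.3%) and 1 higher (3.45%) with a median of -0.62. The mRNAs among them are what the mitochondrial ribosome translates. mt-Co1, a subunit of cytochrome oxidase, had 7540, 7670 and 6980 CPM in wild type control and 4810, 4750 and 5430 CPM with cGAMP (log2 -0.57 ± 0.12, adjusted p = 0.00107 by edgeR), and mt-Cytb fell by 0.72 on the log2 scale.

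The test of the rRNAs of the mitochondrial ribosome in wild type cells rested on 1 aberrant library. mt-Rnr1 of the small subunit had 8999, 328 and 8744 counts and mt-Rnr2 of the large subunit 28746, 476 and 24772 counts in wild type control replicates 1, 2 and 3. The sum of both in replicate 2 was 804 counts, or 0.00286% of its reads, against 26084 to 44463 counts in the other 11 libraries. Selection for poly-A does not aim at these RNAs, and the test gave log2 changes of 0.54 ± 0.84 and 0.13 ± 0.97 (adjusted p = 0.635 and 0.928 by edgeR). In control replicates 1 and 3, mt-Rnr1 was at 321 and 309 CPM and mt-Rnr2 at 1020 and 875 CPM. The 3 cGAMP libraries had 286, 332 and 312 CPM of mt-Rnr1, which overlapped the controls, and 663, 674 and 760 CPM of mt-Rnr2, which lay below them.

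Promoter sequences of RefSeq (GRCm38.p6) were matched for 69 of 78 members, from 250 bases before to 50 bases after the start, and searched on both strands for 4 motifs. GCGCANGCG, the motif type of the factor NRF1, stood in 16 of 69 (23.2%), against 7.03% of all promoters in the table and 15.5% of those of tested genes. CCGGAAG, bound by ETS factors such as GABPA, stood in 26 (37.7%), against 9.93% and 20.9%. AAGATGGCG, of YY1, was in 11.6% against 1.64% and 3.68%. CACGTG, the E-box of Myc and Max, was in 7.25% against 8.09% and 11.9%. In 67 promoters of cytosolic ribosomal protein genes, the ETS motif stood in 38.8%, near the members' share. The other shares there were 14.9% (NRF1-type), 5.97% (YY1-type) and 8.96% (E-box). Among the 68 tested members with a sequence, the 35 with an NRF1-type or ETS motif held 6 called rises and all 4 called falls. The 33 without held 10 rises and 0 falls. Taken singly, the motifs split the falls less sharply. The 16 with an NRF1-type motif held 3 rises and 1 fall, and the 52 without held 13 and 3. The 25 with an ETS motif held 4 rises and 3 falls, and the 43 without held 12 and 1. Over all tested genes, 22.4% were called higher and 25.4% lower. Motifs and response were not tested for association.

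Sequences before the starts were taken for the 2 called members with the largest rise (Mrps6 and Mrps10) and the 2 with the largest fall (Mrps16 and Mrpl34) in wild type cells. Only bases outside every annotated exon are given, and the window of Mrps10 lies within its own annotated exons. Capitals mark a motif match, here the ETS motif of Mrpl34, 37 bases before the start. The ETS match of Mrps16 lies in its RefSeq promoter sequence outside the stretch shown, and the window of Mrps6 held none of the 4 motifs. The stretch of Mrps6 is chr16:92058086-92058269 (plus strand), that of Mrps16 chr14:20393635-20393740 (minus strand) and that of Mrpl34 chr8:71464676-71464925 (plus strand).
Mrps6: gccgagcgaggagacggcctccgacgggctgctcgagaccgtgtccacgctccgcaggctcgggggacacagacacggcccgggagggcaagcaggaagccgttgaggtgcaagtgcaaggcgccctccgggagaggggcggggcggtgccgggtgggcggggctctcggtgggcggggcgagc
Mrps16: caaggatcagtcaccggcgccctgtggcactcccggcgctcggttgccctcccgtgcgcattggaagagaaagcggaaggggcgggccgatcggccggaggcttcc
Mrpl34: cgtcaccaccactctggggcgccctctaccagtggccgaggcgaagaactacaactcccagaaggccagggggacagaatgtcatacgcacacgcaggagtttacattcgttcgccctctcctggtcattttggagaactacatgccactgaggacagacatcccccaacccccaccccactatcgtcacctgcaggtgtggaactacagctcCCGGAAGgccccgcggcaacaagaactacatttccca
Of these bases 76% were G or C before Mrps6, 70% before Mrps16 and 58% before Mrpl34.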

How the data were processed

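Per the submitters' processing notes, reads were processed with fastp, STAR and featureCounts on GRCm38 (mm10); versions, strand setting and annotation release are not given in the sources used here. The authors deposited whole-number counts and FPKM per gene and library. The length implied by count and FPKM was the same in every library. At the median it was 0.482 times the deposited gene length. Libraries were grouped by title. Counts were tested in R 4.3.3 with edgeR 4.0.16 (filterByExpr, TMM, a mean for each of 4 groups, robust quasi-likelihood, two-sided), with Benjamini-Hochberg adjustment over 14473 genes in each of 5 contrasts. SE is the log2 change over the square root of F. CPM are scaled by TMM, except marker sums, which are scaled to library totals. Limma 3.58.1 and DESeq2 1.42.0 were alternatives, with 2 pseudocounts (1 and 0.1) for FPKM. Of the 78 genes, 73 had the same start and end in GENCODE M21, used for overlaps. Depth gives 26490593 counts or more per library. 5 pseudogene rows were left out. The fit was tested on simulated data. Named genes were the 10 largest called rises and falls in wild type cells, the 5 smallest adjusted p of other comparisons, the 3 highest and lowest FPKM, and the Mrps18 paralogs; Mrps2, Mrps7, Mrps9, Mrps11, Mrpl3, Mrpl24, Mrpl33, Mrpl4 and overlapping genes were added after their values were seen. Members and lists were chosen with earlier results of these data known.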

Additional observations from a re-analysis of the deposited data

Results flagged for a closer look

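For 8 of the members named by rule, the response to cGAMP differed between genotypes. The test was that of the difference itself (edgeR, adjusted p under 0.05). As wild type minus Tmem173-/- log2 fold change, the difference was 0.71 for Mrpl47, 0.69 for Mrps18b, 0.64 for Mrps6, 0.63 for Mrps10, 0.54 for Mrpl38 and 0.34 for Mrpl37. It was -0.68 for Mrps16 and -0.54 for Mrpl48. The other called member, Mrps11 (0.5), was named after its values were seen. Mrps16 and Mrpl48 had positive fitted changes in Tmem173-/- cells (0.16 and 0.19, not called) and called falls in wild type cells.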

How the results depend on the processing

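Rises in wild type cells numbered 18 in the main analysis, 33 with library totals, 33 and 32 with limma on log2(FPKM + 0.1) and log2(FPKM + 1), 26 with the replicate block, 9 without both wild type replicate 1 libraries and 9 to 32 when 1 library was left out. Falls numbered 4, with 2 under library totals and both FPKM settings, 2 without both replicate 1 libraries and 1 to 4 with 1 library left out. In Tmem173-/- cells the count was 0, and 1 (Mrps18c) without the filter on low counts, where 26792 genes were tested. Between the controls it was 0, and 2 (Mrpl12 and Mrpl54) without that filter. The difference between responses gave 9 calls, 14 with log2(FPKM + 1) and with the replicate block, 5 without both replicate 1 libraries and 5 to 12 with 1 library left out. Under cGAMP, members higher in Tmem173-/- cells numbered 1, with 3 without the filter, 2 with only those groups fitted, 0 with the replicate block, 0 without both replicate 1 libraries and 0 to 2 with 1 library left out, and members lower numbered 37, with 26 to 36 when 1 library was left out. Named values that changed sign did so near zero, always among members not called: with 1 library left out, Mrpl57 gave -0.05 to 0.14, Mrpl36 -0.08 to 0.13, Mrpl54 -0.06 to 0.18, Mrps18c -0.08 to 0.24 and Mrpl52 -0.04 to 0.20, and without both replicate 1 libraries Mrpl57 gave -0.01. The cause of these shifts was not tested, beyond the fewer samples or more genes that some settings hold by construction. The main fit did not pair control and cGAMP libraries by replicate number and treated them as independent, although they may share mice. Deviations from group means of libraries with the same number correlated at 0.3, 0.218 and 0.0834 in wild type cells. In Tmem173-/- cells the values were 0.288, 0.0958 and 0.17. Every library correlated best with its own number, a hint from the data and not the design. With 3 libraries a group, a log2 change of 0.52 (Mrps18c in Tmem173-/- cells) and one of -0.44 (Mrpl12 between the controls) were not called at the adjusted threshold.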

Other observations

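Wild type control replicate 2 stood apart in a set of genes chosen after their values were seen, none of them a mitochondrial ribosomal protein gene. Of genes with 100 or more counts in each other library, 18 lay below 1/3 of the lowest value elsewhere in that library, and 0 did in each of the other 11 libraries. Genes above 3 times the highest value elsewhere numbered 3 in this library, 7 in wild type cGAMP replicate 1 (among them S100a8 and Ngp), 1 in wild type cGAMP replicate 2 and 1 in Tmem173-/- control replicate 3. The 18 low genes of wild type control replicate 2 included both mitochondrial rRNAs and mt-Tl1, which lies next to them. The others were Gm26917, Gm23935, Lars2 (the mitochondrial leucyl-tRNA synthetase), Rpl12, Hsp90aa1, the exosome genes Dis3 and Exosc5, and 8 genes of rRNA processing. All 8 Rrp genes with enough counts were among them: Rrp12, for example, had 2.52 CPM of the library total against 80.7 to 189 elsewhere, and Rrp1 15.6 against 229 to 287. Hsp90aa1 had 13.6 against 671 to 1963. In the same library Rn7sk, a small nuclear RNA, was at 5524 counts against 81 to 635 in the others. The 77 tested members included no gene this far from the other libraries, in either direction, in any library. The cause was not tested.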
